A study of Homo sapiens with 16 samples.

Results

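The response of LNCaP cells to the cyclin-dependent kinase inhibitor AT7519 was compared between cells that also received OSMI2 and cells that received a scrambled control siRNA, and the difference between the 2 responses is described here gene by gene. For each gene this interaction is the AT7519 minus DMSO log2 difference in the OSMI2 arm minus the same difference in the scrambled (Scr) arm, so a value of 0 means that the 2 compounds together gave the sum of each alone on the log2 scale. All genes were members: 60252 gene IDs were listed, 23830 had enough counts to be tested, and 8 of the 16 RNA-seq libraries of the series entered the contrast. These 8 are 2 libraries each of OSMI2 with 0.5 µM AT7519, OSMI2 with DMSO, Scr with 0.5 µM AT7519, and Scr with DMSO, with AT7519 or DMSO given for 4 hours before harvest. The other 8 libraries come from cells with 1 of 2 siRNAs against OGT (siOGT1 and siOGT2) under the same agents, and they entered the estimate of the spread.

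LNCaP is an established human prostate cancer line with a luminal, androgen-responsive character. The labels describe 1 protocol for the whole series, a knockdown of OGT for 48 hours before the agent. OSMI2 is listed in the siRNA field of the labels, and its dose, its time and whether a scrambled siRNA went with it are not stated there. If the OSMI2 cells had no siRNA, transfection and OSMI2 cannot be told apart. The labels do not tell whether the replicates were grown apart, and p-values reflect the variation among these libraries only, which may be technical.

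OGT, the enzyme that OSMI2 inhibits, attaches single N-acetylglucosamine sugars to serine and threonine residues of nuclear and cytoplasmic proteins, and OGA removes them. Among the kinases that AT7519 inhibits is CDK9, which pairs with cyclin T in the elongation factor P-TEFb and releases RNA polymerase II from its pause near the start of genes. Transcripts that decay quickly, such as those of immediate early genes, fall within hours when CDK9 is inhibited. In the sterol pathway, the SREBP transcription factors turn on the enzymes of cholesterol synthesis when sterols are low.

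Library totals ran between 40216911 and 147019364 counts over the 16 libraries. The 11 luminal markers summed to 5464 to 6194 CPM (counts relative to the library total, scaled by TMM) in OSMI2 with AT7519, 5587 to 6110 in OSMI2 with DMSO, 5153 to 5555 in Scr with AT7519 and 5387 to 5509 in Scr with DMSO. All 11 were detected in each of the 8 libraries. The 8 leukocyte markers summed to 0.0371 to 0.585 CPM over these libraries, with MS4A1 at 0 in all 8. The 10 stromal markers summed to 927.4 to 936.9, 566.5 to 611.1, 700 to 891.4 and 513.3 to 594.9 CPM in the same 4 groups as listed for the luminal markers. Most of that was FN1 (469.7 to 878.1 CPM). COL1A1 (21.32 to 40.82 CPM), VIM (6.004 to 11.98), COL3A1 (3.223 to 8.667) and TAGLN (3.969 to 8.151) were also detected in all 8 libraries. COL1A2 was at 0 in 7 of the 8 libraries and DCN in 4. The part of the stromal difference between groups in the results was not tested. Over the same libraries the 9 basal markers summed to 32.83 to 48.32 CPM and the 8 neuroendocrine markers to 12.97 to 17.53 CPM. In bulk RNA, fewer cells of a type and less RNA per cell cannot be told apart. No gene was targeted by siRNA in these 2 arms, and the transcript of OGT had 422 and 408 CPM in OSMI2 with AT7519, 349 and 336 in OSMI2 with DMSO, 256 and 314 in Scr with AT7519 and 274 and 263 in Scr with DMSO. Its level was higher in OSMI2 than in Scr under AT7519 (log2 difference 0.54 ± 0.13 (SE), adjusted p = 0.00875, edgeR), and its interaction was 0.19 ± 0.18 (adjusted p = 0.87). OGA had an interaction of 0.60 ± 0.30 (adjusted p = 0.631), which passed in 1 of 10 alternatives, the fit of the 8 OSMI2 and Scr libraries alone (adjusted p = 0.0191).

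The first question was how many genes responded to AT7519 differently when OSMI2 was present. CCN1, PPM1D and TOB2 fell further with AT7519 in OSMI2-treated cells than in Scr cells, MSMO1 and MVD fell in OSMI2-treated cells and were not called in Scr cells, and SMAD6 fell in Scr cells but was not called in OSMI2-treated cells. CCN1, PPM1D, TOB2 and SMAD6 kept their interaction call with each of the 8 libraries left out, and MSMO1 and MVD did not. Over the transcriptome, 178 of 23830 genes (0.747%) passed edgeR's quasi-likelihood test of the interaction at a Benjamini-Hochberg adjusted p below 0.05. Of these, 158 (0.663% of tested genes) had a lower response in the OSMI2 arm and 20 (0.0839%) a higher one. Among the 178, 57 differed by at least 2-fold, 47 lower and 10 higher. At an unadjusted p below 0.05 there were 2087 genes (8.76%). Over all tested genes the interaction had a median of 0.04 (log2) and 44.9% were negative.

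For comparison, AT7519 changed 11236 genes (47.2%) in the OSMI2 arm, 5624 up (23.6%) and 5612 down (23.6%), and 11072 (46.5%) in the Scr arm, 5206 up (21.8%) and 5866 down (24.6%). Counts were scaled to each library, so every rise or fall given here is relative to the other transcripts. Whether the total RNA per cell changed cannot be told from these values. OSMI2 against Scr gave 710 genes (2.98%) under DMSO, 117 higher (0.491%) and 593 lower (2.49%), and 3382 (14.2%) under AT7519, 1235 higher (5.18%) and 2147 lower (9.01%). The count under DMSO rests on single libraries: it was 9 and 356 without Scr DMSO replicate 2 and 1, and 36 and 168 without OSMI2 DMSO replicate 2 and 1, and it was 378 with upper-quartile scaling and 390 with library size only. Of the 158 genes with a lower interaction, 11 were called higher and 1 was called lower in OSMI2 than in Scr under DMSO, with a median log2 difference of -0.05. Under AT7519, 149 of the 158 were called lower in OSMI2, with a median of -0.89. The median AT7519 response of the 158 was -1.09 in OSMI2 and -0.32 in Scr. These libraries also gave the calls. The direction under AT7519 and the gap between the responses thus follow largely from the selection and are no further support.

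The lower genes fell into 5 patterns. Of the 158, 90 fell with AT7519 in both arms, and more in OSMI2. A further 52 fell in OSMI2 and were not called in Scr. In 10 the gene fell in OSMI2 and rose in Scr, 4 rose in Scr and were not called in OSMI2, and 2 rose in both arms but less in OSMI2. Of the 20 genes with a higher interaction, 10 fell in both arms but less in OSMI2, 7 fell in Scr and were not called in OSMI2, 2 rose in both arms and 1 rose in OSMI2 and fell in Scr. For all 178 called genes the 4 AT7519 to DMSO ratios between single libraries in OSMI2 lay apart from the 4 in Scr, which held for 22.4% of all tested genes. These are the libraries that gave the calls, so the separation follows largely from the selection and is no further support. The sign was the same on the linear CPM scale in 157 of 158 lower and 20 of 20 higher genes.

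**Figure D1:**
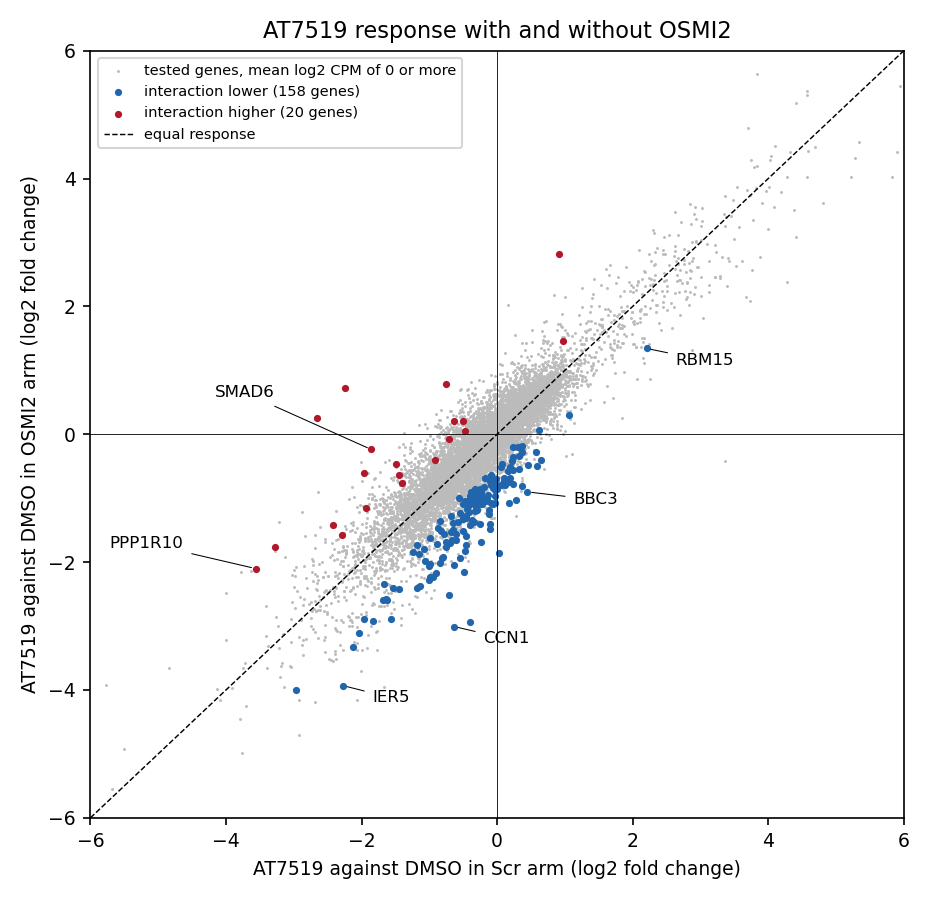
AT7519 response in the OSMI2 arm (vertical) against that in the Scr arm (horizontal), both as log2 fold change against DMSO; grey points are tested genes with a mean log2 CPM of 0 or more, blue points the 158 genes called lower and red points the 20 called higher in the interaction, and the dashed line marks equal responses. Blue points lie below the line and most have negative values in the OSMI2 arm, while most red points lie above it with negative values in the Scr arm; genes beyond 6 on either axis are not drawn.

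The count depended on single libraries. Leaving out 1 library at a time, with the lone library assumed to vary like the other groups, gave 371 and 59 called genes without OSMI2 AT7519 replicate 1 and 2, 50 and 28 without OSMI2 DMSO replicate 1 and 2, 57 and 341 without Scr AT7519 replicate 1 and 2, and 35 and 37 without Scr DMSO replicate 1 and 2. In all 8 of these fits 21 genes stayed called, 20 lower and 1 higher, and these 21 were also called under every other scaling, tool, filter or block in which they were tested. Of the 178 called genes 89 (50%) overlap another tested gene in the annotation, and since no source used here states how strand was handled in counting, their reads cannot be assigned with certainty. Of the 21 stable genes 11 have such an overlap, and it is stated beside each gene named.

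The list of cholesterol and fatty acid synthesis genes was written down with earlier results of these data known. Of its 34 tested members 11 were called lower and 0 higher (against 0.663% and 0.0839% of all tested genes), and 32 of 34 had a negative interaction, against 44.9% of all tested genes. DESeq2 called 16 lower and 0 higher, against 1.78% lower of all tested genes, and limma voom called 11, against 0.621%. An unadjusted p below 0.05 was seen in 21 of 34, against 8.76%. The median interaction over the 34 was -0.45, against 0.04 over all tested genes. All 11 fell with AT7519 in the OSMI2 arm; in Scr 4 fell, 1 rose and 6 were not called. By value all 11 were higher in OSMI2 than in Scr under DMSO, and 6 of them were called so; under AT7519 6 of the 11 were called lower in OSMI2. The count depends on the DMSO libraries: it was 1 without OSMI2 DMSO replicate 2, 2 without Scr DMSO replicate 2, and 7 without Scr DMSO replicate 1 or without Scr AT7519 replicate 1.

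MSMO1, a demethylase of the sterol ring, had 118 and 144 CPM in OSMI2 with AT7519, 197 and 243 in OSMI2 with DMSO, 141 and 136 in Scr with AT7519 and 129 and 119.7 in Scr with DMSO. The OSMI2 DMSO libraries were the highest, and the 4 Scr libraries lay between the 2 OSMI2 libraries with AT7519. Its interaction was -0.91 ± 0.14 (adjusted p = 0.00497), with a response of -0.75 in OSMI2 and 0.15 in Scr. MVD, which makes isopentenyl diphosphate from mevalonate diphosphate, had 42.8 and 49.8 CPM in OSMI2 with AT7519, 66.8 and 81.5 in OSMI2 with DMSO, 41.0 and 40.4 in Scr with AT7519 and 39.4 and 36.3 in Scr with DMSO. Here too the OSMI2 DMSO libraries were the highest, and OSMI2 with AT7519 stayed above Scr by value. The interaction of MVD was -0.78 ± 0.14 (adjusted p = 0.0141).

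MVK, the mevalonate kinase, had 22.2 and 24.5 CPM in OSMI2 with AT7519, 48.6 and 47.6 in OSMI2 with DMSO, 27.5 and 32.4 in Scr with AT7519 and 36.6 and 30.5 in Scr with DMSO. The OSMI2 libraries were the lowest with AT7519 and the highest with DMSO. It fell in OSMI2, by 1.04 ± 0.12 (log2), and was not called in Scr (-0.17 ± 0.12). Its interaction was -0.88 ± 0.17 (adjusted p = 0.0162), and it overlaps MMAB. FDFT1, squalene synthase, was called in opposite directions, at -0.35 in OSMI2 and 0.33 in Scr, with an interaction of -0.67 ± 0.13 (adjusted p = 0.0156). Also called were LPIN1, a phosphatidate phosphatase (-0.99), the lanosterol synthase LSS (-0.84), the isopentenyl diphosphate isomerase IDI1 (-0.75), the last-step reductase DHCR7 (-0.69) and the sterol carrier STARD4 (-0.63), each value being the log2 interaction. LPIN1, LSS, IDI1, DHCR7, FDFT1 and STARD4 each overlap another tested gene. MSMO1, MVD, MVK and these 6 genes each lost the call in at least 1 of the fits that left out a library.

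INSIG1, which holds the SREBP escort protein in the endoplasmic reticulum, did not pass, with an interaction of -1.26 ± 0.41 (adjusted p = 0.334). The squalene epoxidase SQLE had -0.72 ± 0.17 (adjusted p = 0.0582) and HMGCS1, an early enzyme of the mevalonate pathway, -0.51 ± 0.14 (adjusted p = 0.101); they passed under 7 and 5 of 10 alternatives, DESeq2 and both replicate blocks among them. SREBF2, the gene of the SREBP that favours cholesterol synthesis, had -0.12 ± 0.14 (adjusted p = 0.908), and the fatty acid synthase FASN -0.46 ± 0.22 (adjusted p = 0.586). Outside the list, and chosen after their values were seen, ACLY and ACSS2, which both make acetyl-CoA in the cytosol, fell in OSMI2 and rose in Scr. The interaction of ACLY was -0.43 ± 0.10 (adjusted p = 0.0488) and that of ACSS2, which overlaps GGT7, was -0.63 ± 0.12 (adjusted p = 0.0162). Under DMSO both were called higher in OSMI2 than in Scr, ACLY by 0.28 ± 0.07 and ACSS2 by 0.44 ± 0.08 (log2). Under AT7519 neither was called between the arms. Neither gene kept its interaction call with each library left out.

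**Figure D2:**
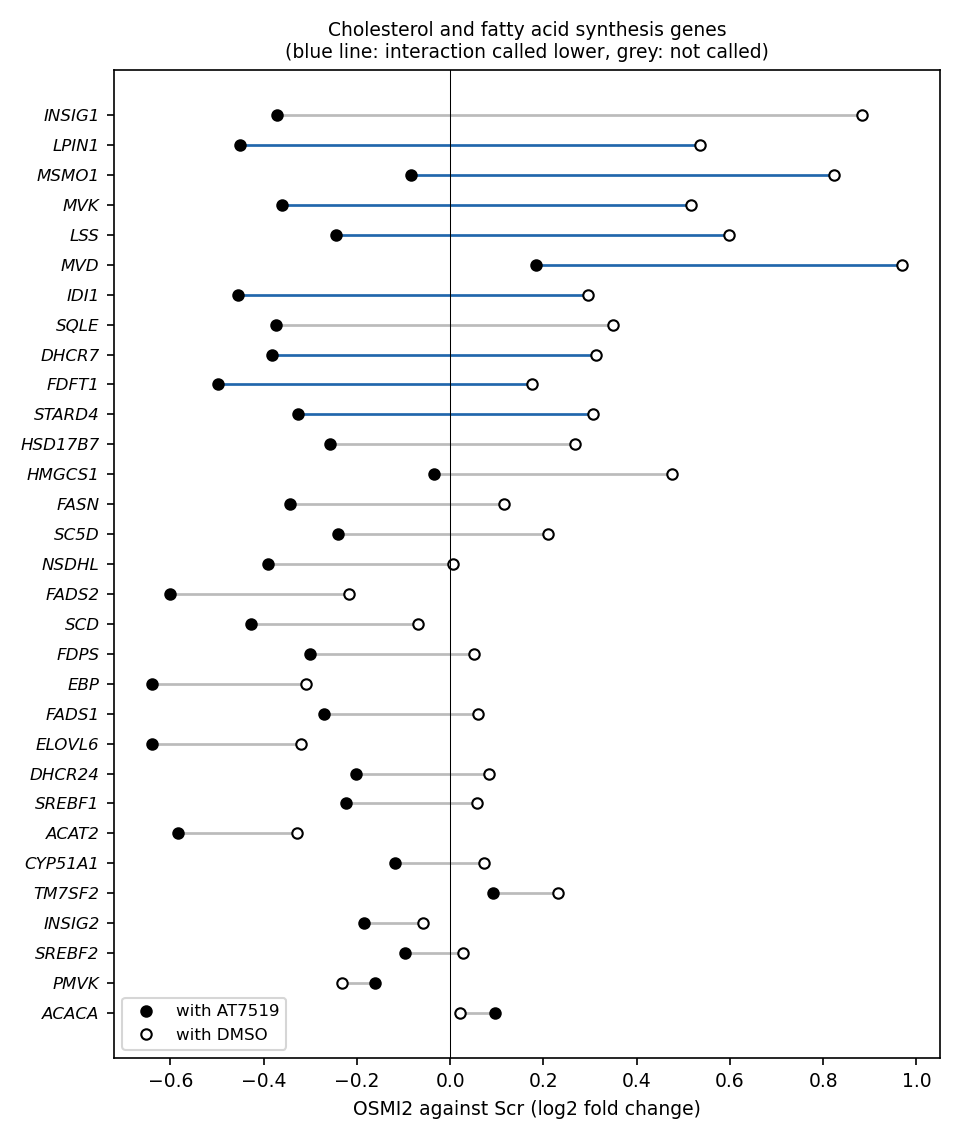
OSMI2 against Scr as log2 fold change (horizontal) for 31 of the 34 tested cholesterol and fatty acid synthesis genes, with AT7519 (filled points) and with DMSO (open points); blue lines join the 2 points of 9 of the 11 genes called lower in the interaction, grey lines those of genes not called. In all 9 drawn the filled point lies left of the open one, and for MSMO1 the 2 points are at -0.084 and 0.82.

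Promoters of the sterol genes usually hold sterol regulatory elements beside CCAAT boxes, the site of the factor NF-Y, so the bases before the start of these genes were searched. Of the 34 members 26 had a promoter entry in the RefSeq table (GRCh38.p14), among them 8 of the 11 called lower. The 250 bases before the start held CCAAT, on either strand, in 16 of the 26 and in 6 of those 8, against 33% of all 27305 promoters. The element TCACNCCAC was found in 1 of the 26, SREBF2, against 0.875% of all promoters, and in 0 of the 8. Both strands were searched for each motif. A match is a description of letters and not a site. Only these exact forms were searched, in the 250 bases before a single start per gene. Elements that differ in sequence or position would be missed, so the low count does not show that these genes lack them. The 3 sequences that follow belong to the called members with a match and the smallest adjusted p, and their capitals mark CCAAT, or ATTGG where the box reads on the other strand. They lie on GRCh38.p14 at chr4:165327419-165327668 (MSMO1, plus strand), chr16:88663092-88663341 (MVD, minus strand) and chr12:109573544-109573793 (MVK, plus strand), and run 5′ to 3′ along the gene.
MSMO1: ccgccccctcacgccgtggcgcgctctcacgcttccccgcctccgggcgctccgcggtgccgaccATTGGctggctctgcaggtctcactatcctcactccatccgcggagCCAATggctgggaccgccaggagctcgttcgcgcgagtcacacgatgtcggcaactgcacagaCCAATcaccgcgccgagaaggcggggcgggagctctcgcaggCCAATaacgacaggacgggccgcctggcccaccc
MVD: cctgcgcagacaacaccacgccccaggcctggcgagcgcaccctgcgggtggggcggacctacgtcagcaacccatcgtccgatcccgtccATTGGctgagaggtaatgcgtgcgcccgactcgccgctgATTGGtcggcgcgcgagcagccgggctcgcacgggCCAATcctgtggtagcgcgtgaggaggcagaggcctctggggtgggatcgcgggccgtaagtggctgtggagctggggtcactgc
MVK: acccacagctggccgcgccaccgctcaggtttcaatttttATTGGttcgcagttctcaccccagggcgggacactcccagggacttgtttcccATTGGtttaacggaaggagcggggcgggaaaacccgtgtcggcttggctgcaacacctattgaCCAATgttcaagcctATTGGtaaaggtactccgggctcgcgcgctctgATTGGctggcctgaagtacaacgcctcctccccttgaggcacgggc
MSMO1 held 4 matches, MVD 3 and MVK 5.

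Among immediate early genes, which cells switch on within minutes of a stimulus, 7 of 32 tested members were called lower and 0 higher, with a median interaction of -0.57 against 0.04 over all tested genes, of which 0.663% were called lower. With DESeq2 9 were called lower and 0 higher, against 1.78% lower of all tested genes, and limma voom called 4, against 0.621%. Requiring a mean log2 CPM of 3 left 3, and 15 had an unadjusted p below 0.05, against 8.76% of all tested genes. The 7 were CCN1, BTG2, IER5, DUSP2, KLF4, ZFP36L1 and MYC. CCN1, a secreted matrix protein, had 1.23 and 0.711 CPM in OSMI2 with AT7519, 8.20 and 8.06 in OSMI2 with DMSO, 6.47 and 5.07 in Scr with AT7519 and 9.48 and 8.36 in Scr with DMSO. The OSMI2 libraries with AT7519 were the lowest, and all 4 DMSO libraries lay close to each other. CCN1 fell in both arms, by 3.01 ± 0.23 (log2) in OSMI2 and by 0.63 ± 0.20 in Scr, and the interaction was -2.38 ± 0.30 (adjusted p = 0.00106). Its response was -1.81 in siOGT1 and -0.76 in siOGT2.

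ZFP36L1, an RNA-binding protein that speeds the decay of AU-rich mRNAs, had 9.76 and 9.34 CPM in OSMI2 with AT7519, 31.4 and 30.6 in OSMI2 with DMSO, 21.4 and 19.4 in Scr with AT7519 and 32.3 and 33.7 in Scr with DMSO. The OSMI2 libraries with AT7519 were the lowest, and the 4 DMSO libraries were the highest and close to each other. The interaction was -0.999 ± 0.15 (adjusted p = 0.00361). The transcription factor gene MYC had 109 and 113 CPM in OSMI2 with AT7519, 150.4 and 156 in OSMI2 with DMSO, 176 and 172 in Scr with AT7519 and 156 and 174 in Scr with DMSO. It fell in OSMI2 (-0.46 ± 0.08) and was not called in Scr (0.075 ± 0.079), with an interaction of -0.54 ± 0.11 (adjusted p = 0.0281).

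The antiproliferative gene BTG2 had an interaction of -1.80 ± 0.35, the growth-response gene IER5 -1.66 ± 0.36, the MAP kinase phosphatase DUSP2 -1.40 ± 0.31 and the transcription factor KLF4 -1.33 ± 0.28, each with an adjusted p between 0.0281 and 0.0471. All 4 fell in both arms. IER5 had only 0.591 and 0.211 CPM in OSMI2 with AT7519, and 1.85 and 1.98 in Scr with AT7519. On the linear CPM scale its departure was positive (1.01 CPM), opposite to its log2 interaction. The list was not uniform: the AP-1 gene JUN had -0.66 ± 0.21 (adjusted p = 0.226, called under 4 of 10 alternatives, both replicate blocks among them), JUNB 0.042 ± 0.21 (adjusted p = 0.994) and IER2 0.045 ± 0.22 (adjusted p = 0.994). The count of 7 became 2 without either DMSO replicate of OSMI2 or of Scr, and 3 without OSMI2 AT7519 replicate 2 or Scr AT7519 replicate 1; CCN1 and ZFP36L1 stayed called in each of these fits.

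Among p53 targets 5 of 33 tested genes were called lower and 0 higher, against 0.663% and 0.0839% of all tested genes, with a median of -0.29. DESeq2 called 11 lower, against 1.78% of all tested genes, limma voom called 6, against 0.621%, and 16 had an unadjusted p below 0.05, against 8.76%. The count of 5 was 2 and 1 without Scr DMSO replicate 1 and 2, 3 and 2 without OSMI2 DMSO replicate 1 and 2, 2 without Scr AT7519 replicate 1 or OSMI2 AT7519 replicate 2, and 9 without OSMI2 AT7519 replicate 1. The phosphatase PPM1D, which switches off p53 signalling, had 7.47 and 6.79 CPM in OSMI2 with AT7519, 28.7 and 26.0 in OSMI2 with DMSO, 22.5 and 18.4 in Scr with AT7519 and 31.2 and 28.3 in Scr with DMSO. The OSMI2 libraries with AT7519 were the lowest by a wide margin. The interaction of PPM1D was -1.39 ± 0.16 (adjusted p = 5.05e-04); it overlaps the small RNA copy RNU6-623P. BBC3, which encodes the pro-apoptotic protein PUMA, fell by 0.90 in OSMI2 and rose by 0.45 in Scr (log2), with an interaction of -1.35 ± 0.26 (adjusted p = 0.0169). BBC3 was called higher in OSMI2 than in Scr under DMSO (0.81 ± 0.18) and was not called under AT7519 (-0.54 ± 0.19). It did not keep its interaction call with each library left out. The others were BTG2, given above, the cyclin CCNG2 (-0.87 ± 0.18) and TP53INP1 (-0.84 ± 0.16), the last of which overlaps NDUFAF6. The p53 targets CDKN1A (-0.48 ± 0.12, adjusted p = 0.0727) and MDM2 (-0.29 ± 0.17, adjusted p = 0.677) did not pass; CDKN1A passed under 5 of 10 alternatives, DESeq2 and both replicate blocks among them.

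**Figure D3:**
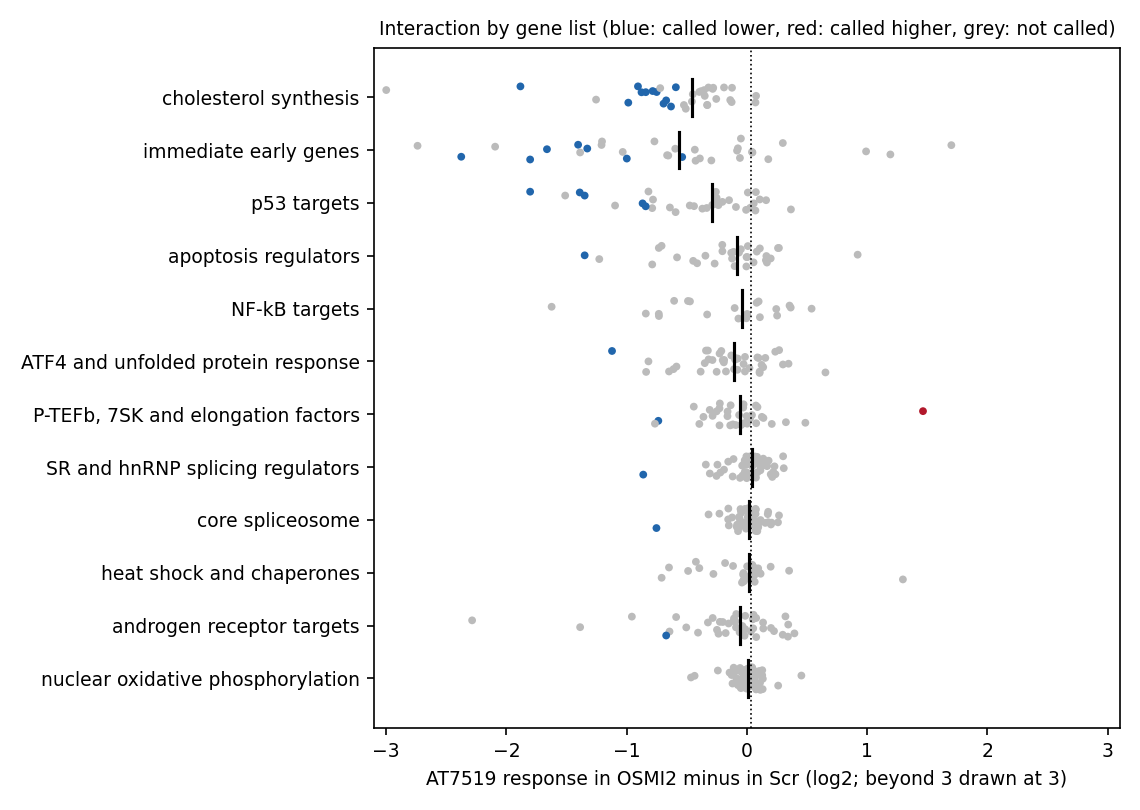
Interaction (AT7519 response in OSMI2 minus that in Scr, log2) of each tested member of 12 gene lists; blue points were called lower, red called higher and grey not called, black bars are list medians, and the dotted line is the median of all tested genes at 0.04. The medians of the cholesterol (-0.45), immediate early (-0.57) and p53 (-0.29) lists lie left of the line, and those of the core spliceosome and oxidative phosphorylation lists lie close to it.

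Of the P-TEFb, 7SK and elongation factor genes, 1 of 36 was called lower and 1 higher, against 0.663% and 0.0839% of all tested genes, with a median of -0.06. CCNT1, the cyclin partner of CDK9, had 89.0 and 62.7 CPM in OSMI2 with AT7519, 109.7 and 117 in OSMI2 with DMSO, 137 and 134 in Scr with AT7519 and 118 and 125 in Scr with DMSO. It fell in OSMI2 and was not called in Scr, and its interaction was -0.74 ± 0.16 (adjusted p = 0.0355). CDK9 itself rose in both arms, by 0.28 in OSMI2 and 0.73 in Scr, and its interaction of -0.44 ± 0.11 did not pass (adjusted p = 0.0816). CDK9 passed under 4 of 10 alternatives, with the replicate block (adjusted p = 0.0367), the block within each agent (0.00709), DESeq2 (0.00479) and no low-count filter (0.0241). HEXIM1, the P-TEFb inhibitor, had 0.14 ± 0.13 (adjusted p = 0.877). PPP1R10, a nuclear regulator of protein phosphatase 1, fell in both arms and less in OSMI2: it had 45.1 and 64.5 CPM in OSMI2 with AT7519 against 15.95 and 22.8 in Scr with AT7519, and 242 and 227 in OSMI2 with DMSO against 228 and 232 in Scr with DMSO. Its interaction was 1.46 ± 0.29 (adjusted p = 0.0498); it overlaps MRPS18B and stayed called in 2 of the 8 fits without a library.

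Of 52 SR and hnRNP regulators 1 was called lower, RBM15, a subunit of the m6A writer complex. Of 54 core spliceosome genes 1 was called lower, CWC22. Over all tested genes 0.663% were called lower, and 147 of 10159 of those with a mean log2 CPM of 3 or more. A single call in either list is near the latter share. RBM15 had 55.4 and 44.2 CPM in OSMI2 with AT7519, 18.8 and 20.5 in OSMI2 with DMSO, 94.1 and 95.3 in Scr with AT7519 and 21.5 and 19.5 in Scr with DMSO. It rose in both arms, by 1.34 in OSMI2 and 2.21 in Scr, with an interaction of -0.86 ± 0.14 (adjusted p = 0.00617), and it overlaps RBM15-AS1. The median interaction of the SR and hnRNP list was 0.04 and that of the core spliceosome list 0.02.

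The ZNF zinc finger genes, many of which encode DNA-binding repressors, had 13 of 491 members called lower and 2 higher, against 0.663% and 0.0839% of all tested genes, with a median of -0.07. ZNF721 was the only one of them called with each of the 8 libraries left out, at -0.79 ± 0.12 (adjusted p = 0.00311), and it overlaps ABCA11P. Lists with 0 called members by edgeR were those of hexosamine and O-GlcNAc cycling (14 tested), heat shock and chaperones (33), NRF2 and oxidative stress (28), NF-kB targets (20), interferon-stimulated genes (35), hypoxia and glycolysis (34), G1/S and replication (46), G2/M and mitosis (45), nuclear oxidative phosphorylation (69), mitochondrial ribosomal proteins (78), snoRNA hosts (26), lysosome and autophagy (40) and replication histones (44). The 5 marker lists of luminal, basal, neuroendocrine, stromal and leukocyte cells also had 0, as did the long intergenic LINC transcripts (450), the antisense AS1 transcripts (914) and the snoRNA and scaRNA genes (164). Summed over these 21 lists, 156 of 2070 tested members had an unadjusted p below 0.05, against 8.76% of all tested genes. DESeq2 called 8, against 478 of all 23830 tested genes, and limma voom 0, against 0.621%. Of the larger groups, 2 of 281 solute carrier genes were called lower, near the 0.663% of all tested genes. The share called higher over all tested genes was 0.0839%. A single call in a list, as in those that follow, is not read as a result about the list. Lists with 1 called member were ATF4 and the unfolded protein response (PPP1R15B, lower, of 41), glucose-responsive genes (MXD1, lower, of 13), growth factor signalling (PIK3R3, lower, of 33), DNA repair (XRCC2, higher, of 44) and cytosolic ribosomal proteins (RPL26, higher, of 84). Of 43 androgen receptor targets 1 was called lower, ZBTB10, and KLK3, the gene of prostate-specific antigen, had 0.14 ± 0.15 (adjusted p = 0.908). Apoptosis regulators had 1 of 32, BBC3, and the survival factor MCL1 had -0.58 ± 0.14 (adjusted p = 0.0575). MCL1 passed under 9 of the 10 other scalings, tools, filters, blocks or sample sets (adjusted p 4.21e-05 to 0.0716 over the 10) and in 2 of the 8 fits without a library, so its call depends on the setting.

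Genes outside the lists were also among the 21 stable calls. TOB2, a partner of the mRNA deadenylase machinery, had 15.7 and 12.8 CPM in OSMI2 with AT7519, 56.2 and 53.5 in OSMI2 with DMSO, 31.2 and 27.9 in Scr with AT7519 and 54.9 and 49.2 in Scr with DMSO. The DMSO groups of TOB2 overlapped, and the AT7519 groups did not. Its interaction was -1.11 ± 0.16 (adjusted p = 0.00256). EFNA5, an ephrin ligand of the cell surface, had 43.7 and 44.3 CPM in OSMI2 with AT7519, 94.3 and 106 in OSMI2 with DMSO, 96.1 and 92.2 in Scr with AT7519 and 95.9 and 109 in Scr with DMSO. The OSMI2 AT7519 libraries of EFNA5 were low, and the other 6 overlapped. It fell in OSMI2 (-1.19 ± 0.092) and was not called in Scr (-0.12 ± 0.089), and the interaction was -1.06 ± 0.13 (adjusted p = 5.05e-04).

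RFX7, a transcription factor, had 29.4 and 26.7 CPM in OSMI2 with AT7519, 64.1 and 53.7 in OSMI2 with DMSO, 61.5 and 51.5 in Scr with AT7519 and 60.9 and 55.0 in Scr with DMSO. Again the OSMI2 AT7519 libraries alone were low, and the response was -0.038 in Scr, -0.057 in siOGT1 and 0.034 in siOGT2. The interaction of RFX7 was -1.03 ± 0.15 (adjusted p = 0.00256). KAT6A, a histone acetyltransferase, fell in both arms, and its interaction was -0.83 ± 0.12 (adjusted p = 0.00256). CRKL, a signalling adaptor, fell in OSMI2 (-0.68) and was not called in Scr (0.20), with an interaction of -0.87 ± 0.13 (adjusted p = 0.00311). LUZP1, a cytoskeletal protein, and VEZF1, a zinc finger transcription factor, had -0.98 ± 0.15 and -0.79 ± 0.13 (adjusted p = 0.00363 and 0.00497).

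Stable genes that overlap another tested gene were named after their values were seen. FBXO5, an inhibitor of the anaphase-promoting complex, had -1.31 ± 0.20 (adjusted p = 0.00361) and overlaps an unnamed gene. The deubiquitinase YOD1 had 36.5 and 27.7 CPM in OSMI2 with AT7519, 42.3 and 42.5 in OSMI2 with DMSO, 82.6 and 68.3 in Scr with AT7519 and 45.8 and 50.3 in Scr with DMSO. It fell in OSMI2 (-0.39) and rose in Scr (0.65), and its interaction was -1.05 ± 0.16 (adjusted p = 0.00311); it overlaps PFKFB2. MAT2A, which makes the methyl donor S-adenosylmethionine and overlaps GGCX, had -1.05 ± 0.16 (adjusted p = 0.00497). Its OSMI2 response was not called different from the mean siOGT response (-0.31 ± 0.14, adjusted p = 0.373, edgeR). The MAT2A interactions of siOGT1 and siOGT2 with AT7519 were also negative, at -0.85 and -0.63, and neither was called. VASN, a cell surface protein that overlaps CORO7, had -1.67 ± 0.23 (adjusted p = 0.00256). ADNP, which overlaps ADNP-AS1, and the Polycomb protein CBX8, which overlaps a gene without a symbol, had log2 interactions of -0.84 and -0.83. The gene with the most negative interaction of all called genes was the microRNA gene MIR25 (-2.53 ± 0.43, adjusted p = 0.00753), which overlaps MCM7; reads counted there may come from that transcript.

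**Figure D4:**
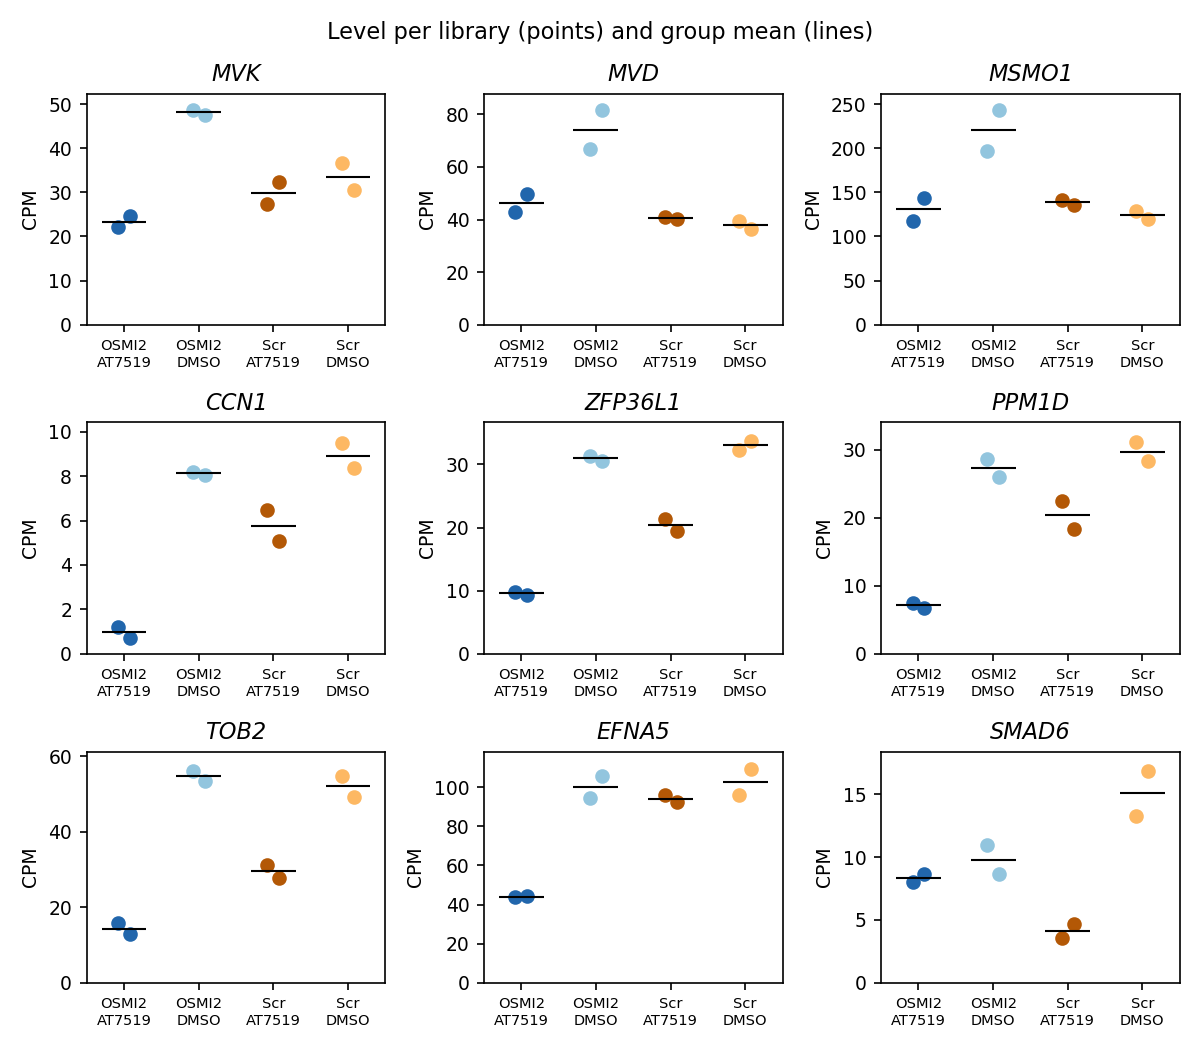
CPM per library (points) and group mean (lines) for 9 genes in OSMI2 with AT7519, OSMI2 with DMSO, Scr with AT7519 and Scr with DMSO, on linear axes from 0. In MVK, MVD and MSMO1 the OSMI2 DMSO libraries are the highest; in CCN1, ZFP36L1, PPM1D, TOB2 and EFNA5 the OSMI2 AT7519 libraries are the lowest; in SMAD6 the Scr AT7519 libraries are the lowest.

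SMAD6, an inhibitor of BMP signalling, was the only gene with a higher interaction that stayed called with each of the 8 libraries left out. It had 8.003 and 8.63 CPM in OSMI2 with AT7519, 11.0 and 8.64 in OSMI2 with DMSO, 3.58 and 4.70 in Scr with AT7519 and 13.3 and 16.9 in Scr with DMSO. The 2 OSMI2 groups nearly touched, and under DMSO both OSMI2 libraries lay below both Scr libraries, a difference that was called (-0.62 ± 0.17, adjusted p = 0.0476). SMAD6 fell by 1.86 ± 0.18 in Scr, and its response was -0.24 ± 0.17 in OSMI2. The interaction was 1.62 ± 0.25 (adjusted p = 0.00311), and the response was -1.18 in siOGT1 and -1.20 in siOGT2. Others of the 20 higher genes, chosen after their values were seen, were the DNA repair gene XRCC2 (0.80 ± 0.14), the ribosomal protein gene RPL26 (0.49 ± 0.11), which rose in both arms, and KNDC1 (1.55 ± 0.32), which rose in OSMI2 and fell in Scr.

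Over all tested genes, 18 were called in opposite directions in the 2 arms, 15 falling in OSMI2 and rising in Scr and 3 the reverse, and 11 of the 18 were called in the interaction. Those 11 were YOD1, EXOC8, ZBTB2, FDFT1, ZBTB6, ACLY, ZNF317, BBC3, ACSS2, ZNF217 and KNDC1. Properties outside the contrast were set against all tested genes as descriptions, with no test. The 158 lower genes had higher counts, with a median mean log2 CPM of 5.22 against 1.76 over all tested genes. Of the 158, 155 were protein-coding (98.1%), against 61.2% of tested genes; among genes whose mean log2 CPM was at least 3, the shares were 99.3% (146 of 147) and 94.4% (9587 of 10159). Exon numbers were taken from the GENCODE v29 models. Among protein-coding genes with a mean log2 CPM of 3 or more, 33 of 146 lower genes (22.6%) had at most 3 exons, against 10.3% of those that fell with AT7519 in OSMI2, 8.65% of those that fell in Scr and 6.73% of all tested. The median exon number in the longest model was 6 for the lower genes and 10 for all tested genes at that level.

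**Figure D5:**
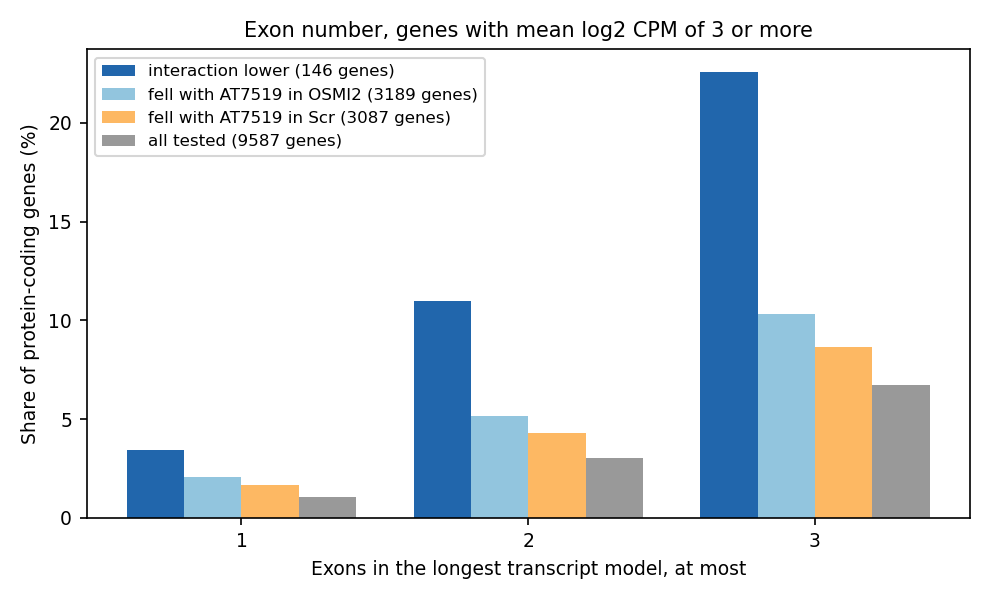
Share of protein-coding genes (percent, from 0) with at most 1, 2 or 3 exons in the transcript model with most exons, for genes with a mean log2 CPM of 3 or more; bars are, from left to right, the 146 lower interaction genes, the 3189 that fell with AT7519 in OSMI2, the 3087 that fell in Scr and all 9587 tested. The first bar is the highest at each exon number, at 3.42%, 11% and 22.6%.

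The siRNA arms offer a second set of AT7519 responses, which share the Scr libraries when set against Scr. The interaction of siOGT1 with AT7519 gave 12 called genes and that of siOGT2 gave 0 by edgeR, with 1393 and 928 genes at an unadjusted p below 0.05. DESeq2 called 118 and 3 genes and limma voom 23 and 0. The median AT7519 response of the 158 genes was -1.09 in OSMI2, -0.54 in siOGT1, -0.35 in siOGT2 and -0.32 in Scr. Measured against the mean of the siOGT1 and siOGT2 responses, which uses no Scr library, the OSMI2 response differed in 489 genes (2.05%), 94 higher (0.394%) and 395 lower (1.66%). Of the 158 genes 135 were called lower in that comparison and 158 had a negative value; of the 20 higher genes 11 were called higher and 19 had a positive value. Both comparisons rest on the same 4 OSMI2 libraries, through which the 158 and 20 genes were called. Their signs against the siOGT responses were thus largely set by that choice and are no independent support.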

How the data were processed

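RNA-seq of LNCaP cells was analysed from the count table that the authors deposited: whole-number counts per gene, made with STAR and HTSeq on hg19 (GRCh37), with DESeq2 also named, per the submitters' processing notes. The library kit was strand-specific, per the labels' protocols; how strand was handled in counting is not stated there. Groups came from the siRNA and agent labels. All 16 libraries (40216911 to 147019364 counts) entered 1 fit of 8 group means with edgeR 4.0.16 (R 4.3.3): filterByExpr left 23830 of 60252 gene IDs, scaling was TMM, and robust quasi-likelihood tests had 8 residual degrees of freedom. The common biological coefficient of variation was 0.110. The SE is the absolute log2 difference divided by the square root of F. P-values were adjusted over all tested genes (Benjamini-Hochberg, threshold 0.05). With 2 libraries per group, precision is set by their number. The scripts were tested on simulated data.

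The members and the gene lists were chosen with earlier results of these data known. Genes named by rule were called, kept their call with each of the 8 libraries left out, had responses that did not overlap between arms, a mean log2 CPM of 3 or more (any level for list members), and no overlap with another tested gene. From these the rule took up to 12 per direction, 6 with opposite responses and 3 per list, and 10 genes met it. OGT, OGA, CDK9, MYC, MCL1, HEXIM1 and KLK3 were always named. All other genes named were chosen after their values were seen. GENCODE v29 (GRCh38) gave gene types, exon numbers and overlaps only, for 55951 gene IDs. The prior count for log2 CPM was 2. Alternatives were other scalings, DESeq2 1.42.0, limma voom (limma 3.58.1), other filters, the 8 libraries alone, replicate blocks and leaving out each library. Some items are not reported here. A second deposited table of normalized values was not used here.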

Additional observations from a re-analysis of the deposited data

Results flagged for a closer look

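The results listed here are those in which the AT7519 response differed between the OSMI2 and Scr arms by a test of that difference (edgeR's quasi-likelihood test, Benjamini-Hochberg adjusted p below 0.05). There were 178 such genes. Genes that kept the call with each library left out had these log2 differences, AT7519 response in OSMI2 minus that in Scr. Lower were CCN1 (-2.38), VASN (-1.67), PPM1D (-1.39), FBXO5 (-1.31), TOB2 (-1.11), EFNA5 (-1.06), MAT2A (-1.05), YOD1 (-1.05), RFX7 (-1.03), ZFP36L1 (-0.999), LUZP1 (-0.98), CRKL (-0.87), ADNP (-0.84), CBX8 (-0.83), KAT6A (-0.83), VEZF1 (-0.79) and ZNF721 (-0.79). SMAD6 was higher, at 1.62. MYC, one of the genes always named, had -0.54 and kept its call in 2 of the 8 fits without a library.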

How the results depend on the processing

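The 10 genes named by rule kept their direction and call under every alternative in which they were tested. The rule itself required the call in the 8 fits without a library, so those fits add no support. MYC, which is not one of these 10, lost its call in 6 of the 8 fits without a library (adjusted p 0.0528 to 0.182). Genes called lower in the interaction were 158, and 424 with DESeq2, 505 with no low-count filter, 332 with a replicate block, 617 with a replicate block within each agent, 268 with only the 8 OSMI2 and Scr libraries, 395 with the mean siOGT response in place of Scr, and 47 at 2-fold or more. Genes called higher were 20, and 54 with DESeq2, 12 with limma voom, 46 with no low-count filter, 44 with a replicate block, 167 with a replicate block within each agent, 94 with the mean siOGT response, and 10 at 2-fold or more. Requiring a mean log2 CPM of 3 gave 7123 AT7519 calls in OSMI2 and 6781 in Scr, with fewer genes tested. OSMI2 against Scr under DMSO gave 710 genes, and 378 with upper-quartile scaling, 390 with library size only, 1420 with DESeq2, 1224 with a replicate block and 2391 with a block within each agent; under AT7519 the block within each agent gave 5555. OSMI2 against the siOGT responses gave 982 genes with DESeq2, 1149 with no filter, 776 with a replicate block and 1622 with a block within each agent. Cholesterol members called lower were 17 with no filter and 17 with a block within each agent; immediate early members were 4 with limma voom, 11 with no filter, 3 at a mean log2 CPM of 3 and 12 with a block within each agent. Leaving out 1 library at a time gave 25 to 353 lower and 2 to 25 higher interaction genes, 1 to 12 cholesterol and 2 to 9 immediate early members, 9 to 547 genes for OSMI2 against Scr under DMSO, 1585 to 3244 under AT7519, and 154 to 720 against the siOGT responses. The cause of these changes was not tested. Same-numbered replicates deviated together among the Scr and siOGT arms within an agent (correlations of 0.604 to 0.734). The OSMI2 arm shared this little (0.0448 to 0.185), and so differs here from the Scr arm it was compared with. Between agents the correlations were -0.135 to 0.0379 without OSMI2 and -0.0293 to 0.432 with it, the highest between the 2 OSMI2 groups. The main fit did not take the numbers as pairs, and the source of this pattern was not tested. All 178 genes stayed called under both blocks, each of which called more genes than the main fit. The OSMI2 arm shared little of the pattern that the blocks fit. Calls kept or gained under the blocks are thus no further support. The block within each agent gave 784 called genes, and the share of lower calls was 78.7%, against 88.8%. Low-count genes limit the depth: of 60252 IDs 40417 had a count and 23830 were tested.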
